A study of Homo sapiens with 6 samples.

Results

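The 49 genes described here belong to the interferon response and to antigen presentation by HLA class I. They were chosen by symbol, and all 49 were found among the 40205 gene symbols of the count table. RNA-seq was carried out on HepG2, a human liver cancer cell line, in a control group of 3 samples (Control-1 to Control-3) and a CLs-treated group of 3 samples (CLs-1 to CLs-3). CLs are cationic liposomes made of the cationic lipid DOTAP, cholesterol and a PEG-linked lipid, a type of carrier for genes and drugs. Cells of the treated group were exposed to them at 120 μM by the sample labels for 24 h. The study's text gives 120 μg/ml for the experiments after the viability assay, but 120 μM in its cell cycle method. The controls are listed at a dose of 0 and an exposure of 0 h, and no vehicle is named for them. Whether they were cultured for the same 24 h is not stated, so exposure and time in culture cannot be told apart here. The labels give no genetic change in either group and do not say whether the 3 samples of a group came from separate cultures. The p-values below therefore measure only the spread between these samples, which may be technical. The comparison addresses how the expression of these genes differed between the CLs-treated and the control group.

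Interferons are secreted proteins that warn cells of a virus. RNA sensors such as DDX58 (also called RIG-I) and IFIH1 detect viral RNA and, through the adaptor MAVS, switch on interferon genes. Secreted interferon binds its receptor, the kinases JAK1 and TYK2 are activated, and a complex that includes STAT2 and IRF9 enters the nucleus and binds the interferon-stimulated response element (ISRE) of its target genes. The targets include effectors that block viral RNA, translation or entry, and also more sensors and transcription factors, so the response feeds itself. Interferon also raises the machinery that cuts proteins, carries the peptides into the endoplasmic reticulum and loads them on HLA class I molecules for display to T cells. In liver cells the response is best known from infections with hepatitis viruses.

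The libraries held 11418527 to 13998946 counts in genes, and 3 counts, taken as the floor of what this depth can show, correspond to 0.208 to 0.263 CPM, the counts relative to a library total scaled by edgeR's TMM method. Marker genes of liver cells were at or near 0. None of 18 hepatocyte and HepG2 markers had enough reads to be tested, APOH and TTR had 0 counts in all 6 libraries, ALB, the gene of serum albumin, had 0 counts in 5 libraries and 8 in CLs-1, and no marker had more than 12 counts outside CLs-1. The data therefore do not show the marker pattern of the labelled cell line, and the cells are referred to by their labels only. The epithelial keratins KRT8 and KRT18 and the collagen genes COL3A1 and COL1A1 were abundant in every library. Other markers of the same lists were not. The epithelial EPCAM and CDH1 had at most 7 and 9 counts, and KRT19 at most 19 outside CLs-1. Of the fibroblast markers, COL1A2, LUM and THY1 had at most 2 counts outside CLs-1. CLs-1 stood apart in genes of other tissues, with a summed level of 33.0 CPM over 4 erythroid markers and 33.4 CPM over 8 adrenal markers, against at most 0.347 and 2.76 CPM in the other 5 libraries. Control-3 stood apart in the interferon-stimulated genes themselves, as described below, so results that rest on it are given with and without it.

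Promoters of these genes were searched for the core of the ISRE. The core was TTTC, 2 bases of any kind, then TTTC, on either strand, so that it reads GAAA, 2 bases, GAAA on the other strand. Promoters of 300 bases, from 250 before to 50 after the transcript start, were given by RefSeq (GRCh38.p14) for 39 of the 49 genes, and 23 of them (59.0%) held the core, against 1255 of 35116 promoters (3.57%) of all genes given. The core of the gamma-activated site, an element of genes that interferon gamma raises, which is TTC, 3 bases of any kind, then GAA, was found in 8 of 39 promoters (20.5%) against 7.66% of all. A match is a description of the letters and does not show that a factor was bound. Windows of 50 bases, with the match and 20 bases on each side, are shown for 10 members that the following results turn on, chosen after their values were seen. The match shown is the nearest to the start whose whole window lies before it, and IFIH1 and IFIT5 hold a nearer match at 11 and 9 bases before the start. The first 7 were higher in Control-3 by over 1.5 times than in the other control libraries, and the last 3 (BST2, IFIT5 and B2M) were not. Sequences run 5′ to 3′ along the gene's strand, and capitals mark the ISRE core.
IFIH1, minus strand, chr2:162318808-162318857, 143 bases before the start: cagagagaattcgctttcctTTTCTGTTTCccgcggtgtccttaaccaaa
ISG15, plus strand, chr1:1013370-1013419, 97 bases before the start: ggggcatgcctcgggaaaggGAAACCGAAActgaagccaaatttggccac
IFIT1, plus strand, chr10:89392500-89392549, 93 bases before the start: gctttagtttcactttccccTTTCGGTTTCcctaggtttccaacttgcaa
IFI27, plus strand, chr14:94110621-94110670, 85 bases before the start: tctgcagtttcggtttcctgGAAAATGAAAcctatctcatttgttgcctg
ISG20, plus strand, chr15:88638927-88638976, 59 bases before the start: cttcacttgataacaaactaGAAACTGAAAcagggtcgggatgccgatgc
GBP1, minus strand, chr1:89065306-89065355, 117 bases before the start: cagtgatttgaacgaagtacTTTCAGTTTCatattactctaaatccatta
TAP1, minus strand, chr6:32853803-32853852, 118 bases before the start: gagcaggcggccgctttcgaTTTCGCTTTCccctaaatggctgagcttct
BST2, minus strand, chr19:17405725-17405774, 114 bases before the start: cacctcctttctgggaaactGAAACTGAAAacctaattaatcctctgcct
IFIT5, plus strand, chr10:89414503-89414552, 35 bases before the start: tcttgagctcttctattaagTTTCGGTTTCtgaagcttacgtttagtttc
B2M, plus strand, chr15:44711359-44711408, 128 bases before the start: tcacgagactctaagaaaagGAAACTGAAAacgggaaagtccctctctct
The core was in 16 of 25 promoters (64.0%) of tested members that were over 1.5 times higher in Control-3 and in 7 of 11 (63.6%) of the tested members that were not. The share with these letters was thus close in members that were high in Control-3 and in the others.

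No member passed the test between the CLs-treated and the control group. Of the 49 genes, 46 had enough reads to be tested, and with edgeR's quasi-likelihood test 0 were called up and 0 down where a call needed an adjusted p under 0.05 and a change of over 1.5-fold up or to below 0.67-fold. Among all 15047 genes tested, 2 (0.0133%) were called up and 11 (0.0731%) down. At an unadjusted p under 0.05 there was 1 member, GBP1, which is 1 of 46 against 5.81% of all genes, and DESeq2 gave 3 members (GBP1, IRF9 and TAP1) against 5.10% of all genes. DESeq2 called 0 members up and 1 down, as described for GBP1 below. The log2 fold change was above 0 in 11 members and below 0 in 35, with a median of -0.15 against 0.01 over all genes, and it ran from -1.28 in GBP1 to 0.30 in IFI35. In 0 members did all CLs-treated samples lie above all control samples, against 5.34% of all genes, and in 1 member, GBP1, all lay below, against 6.18%. As with any bulk sample, less RNA per cell and fewer cells that make it cannot be told apart. The 3 untested members were CMPK2, a nucleotide kinase of mitochondria, with 1 to 8 counts per library, XAF1, a pro-apoptotic gene, with 18 counts in Control-3 and 0 to 3 in the other libraries, and PSMB9, an immunoproteasome subunit, with 53 counts in Control-3, 17 in CLs-3 and 4 to 9 in the others.

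A single control library held most of the spread within these genes. Control-3 was the highest of the 6 libraries in 40 of the 46 tested members (87.0%), against 21.4% of all tested genes, and the highest control in 44 of them (95.7%), against 39.7%. The 6 members with another highest library were NLRC5, USP18, IFIT5, IFI35, BST2 and B2M. The CPM in Control-3 was over 1.5 times the mean of Control-1 and Control-2 in 31 members (67.4%), against 9.11% of all genes. This ratio, called the Control-3 ratio below, had a median of 1.92 over the members and ranged from 1.00 in BST2 to 9.81 in OAS2, whereas its median over all genes was 0.998. No member stood as high in Control-1 or Control-2 against the other controls, nor in CLs-1 or CLs-2 against the other CLs-treated libraries. CLs-3 was over 1.5 times the mean of CLs-1 and CLs-2 in 11 members (23.9%), against 4.9% of all genes. Both libraries numbered 3 were thus high in part of these genes within their groups.

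**Figure D1:**
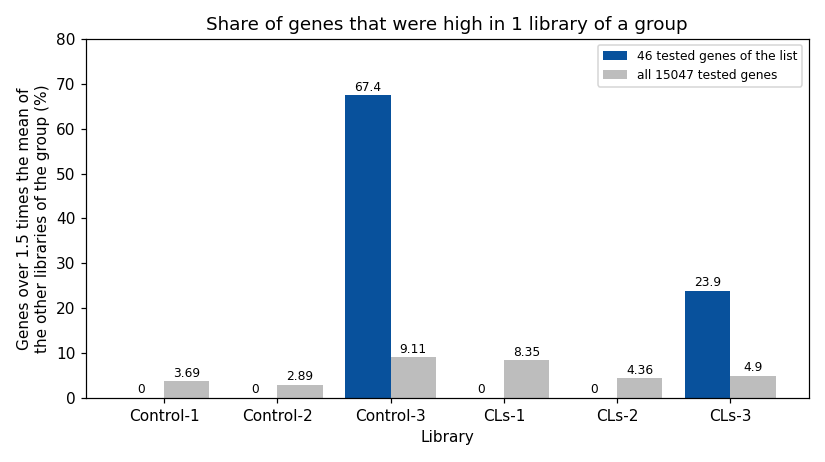
Bars give the percentage of genes whose TMM-scaled CPM in a library was over 1.5 times the mean of the other libraries of its group, for the 46 tested genes of the list (blue) and for all 15047 tested genes (grey). The list stands at 67.4% in Control-3 and 23.9% in CLs-3 and at 0 in the other 4 libraries.

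Markers of other cell types were set beside the excess in Control-3. Over 8 leukocyte markers the summed level was 15.4 CPM in Control-3, inside the 13.4 to 17.7 CPM of the controls and below the 17.4 to 23.5 CPM of the CLs-treated group. It came nearly all from CD68, while PTPRC had at most 1 count and CD3E and MS4A1 had 0 in every library. The 4 endothelial markers summed to 3.69 CPM in Control-3 and to at most 0.438 CPM elsewhere, of which CDH5 had 36 counts in Control-3 and at most 1 in the other libraries, and KDR was at 0 in all. The 5 epithelial markers, mostly KRT8 and KRT18, summed to 4782 CPM in Control-3, 3175 and 3907 CPM in the other controls, and 1420 to 1961 CPM in the CLs-treated group. The endothelial and epithelial sums were thus highest in Control-3, and their part in the excess was not tested. In total counts Control-3 was close to the others, and no label separates it.

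**Figure D2:**
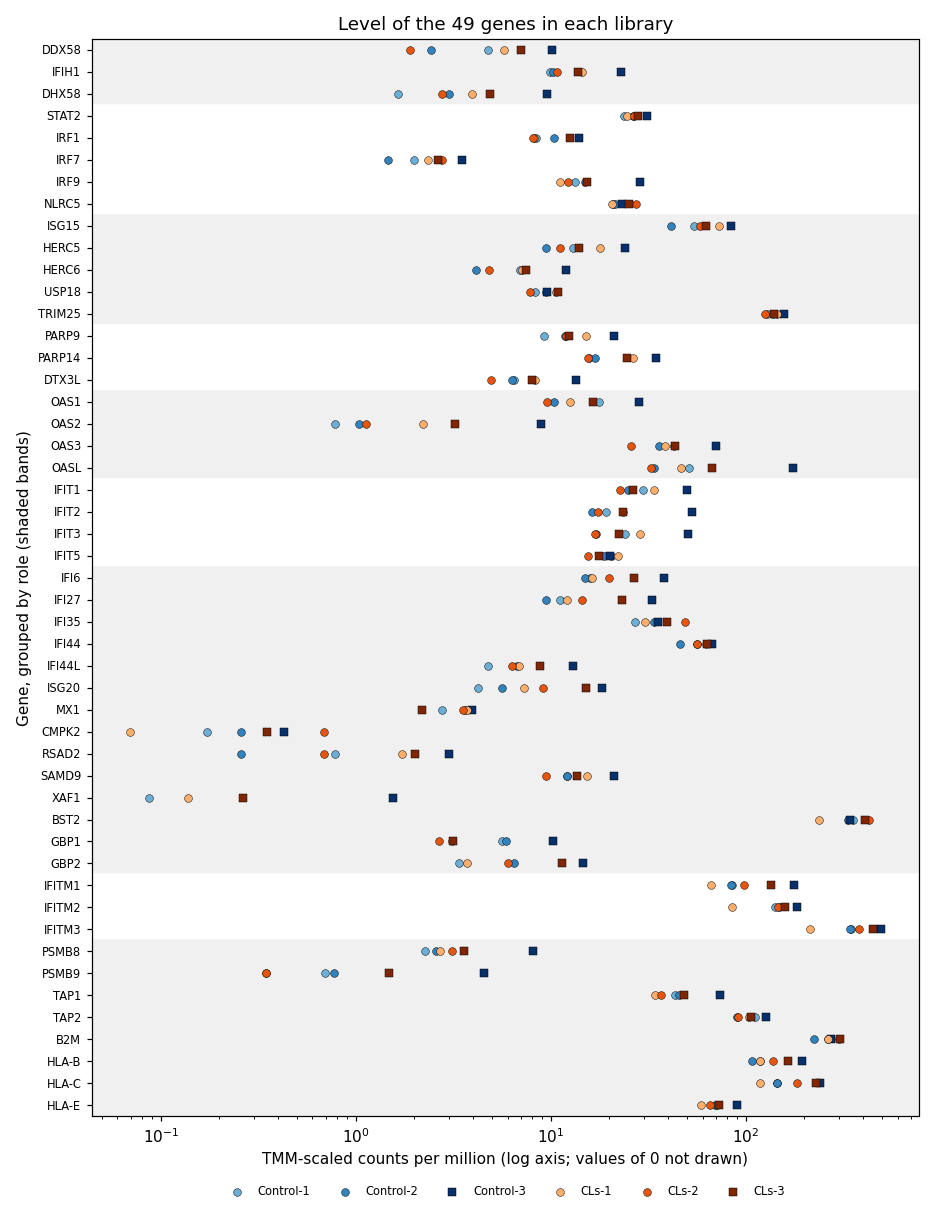
Points give the TMM-scaled CPM of each of the 49 genes in each of the 6 libraries on a log axis, with control libraries in blue, CLs-treated libraries in orange and brown, and squares for the libraries numbered 3. The dark blue squares of Control-3 lie farthest to the right in 40 of the 46 tested genes.

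Among the RNA sensors, all 3 members were highest in Control-3 and none passed the test. DHX58, a regulator of the other sensors, was measured at 1.65, 3.02 and 9.60 CPM in Control-1 to Control-3 and at 3.95, 2.77 and 4.91 CPM in CLs-1 to CLs-3. The groups overlapped, as the treated libraries lay between the lowest and the highest control. Its log2 fold change was -0.30 (SE 0.52, edgeR, adjusted p = 0.998) and 0.73 (SE 0.37, edgeR, adjusted p = 0.893) without Control-3. The Control-3 ratio was 4.11 for DHX58, 2.84 for DDX58 and 2.26 for IFIH1. IFIH1, which recognises long double-stranded RNA, was even in Control-1 and Control-2, at 9.90 and 10.3 CPM, and stood at 22.8 CPM in Control-3.

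None of the 5 transcription factors passed the test, and their median Control-3 ratio was 1.48. IRF9, a DNA-binding part of the complex that binds the ISRE, had 13.4, 15.02 and 28.6 CPM in the controls and 11.1, 12.3 and 15.4 CPM in the CLs-treated samples. CLs-1 and CLs-2 were below every control, CLs-3 was above Control-1 and Control-2, and Control-3 was highest. Its log2 fold change was -0.55 (SE 0.28, edgeR, adjusted p = 0.889), and -0.14 (SE 0.21, edgeR, adjusted p = 0.998) without Control-3. All stretches of 100 bases of the longest IRF9 coding transcript are shared with an overlapping annotated gene, so how its reads were assigned is uncertain. IRF7, which amplifies interferon production, and IRF9 had Control-3 ratios of 2.03 and 2.01. IRF1, which also drives antigen presentation genes, had 1.48, STAT2 had 1.24 and NLRC5, the transactivator of HLA class I genes, had 1.10.

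The ISG15 system was taken here as 5 genes. ISG15 is a ubiquitin-like protein that is attached to other proteins and also secreted. HERC5 and TRIM25 are ligases, HERC6 is a relative of HERC5, and USP18 removes ISG15 and dampens the interferon receptor. HERC6 had the lowest p of these 5 genes, with 6.95, 4.14 and 12.0 CPM in the controls and 7.13, 4.84 and 7.45 CPM in the CLs-treated samples. Its groups overlapped, with a log2 fold change of -0.25 (SE 0.34, edgeR, adjusted p = 0.998), and 0.23 (SE 0.30) without Control-3. ISG15, singled out after its values were seen, had 54.0, 41.5 and 84.3 CPM in the controls and 72.8, 58.0 and 62.7 CPM in the treated samples. All treated libraries of ISG15 lay above Control-1 and Control-2 and below Control-3. Its log2 fold change was 0.11 (SE 0.22, edgeR, adjusted p = 0.998), and 0.43 (SE 0.17, edgeR, adjusted p = 0.738) without Control-3. The Control-3 ratio was 2.16 for HERC6, 2.13 for HERC5 and 1.76 for ISG15, but 1.17 for TRIM25 and 1.07 for USP18. Part of the USP18 transcript, 15.4% of its stretches of 100 bases, is shared with the copy USP41.

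PARP9, PARP14 and DTX3L, which work on ADP-ribosylation and ubiquitination after interferon, were all highest in Control-3 and without a call. DTX3L had 6.51, 6.30 and 13.5 CPM in the controls and 8.31, 4.93 and 7.97 CPM in the CLs-treated samples. CLs-2 was the lowest library and Control-3 the highest, and the log2 fold change was -0.31 (SE 0.32, edgeR, adjusted p = 0.998), and 0.15 (SE 0.27) without Control-3. Control-3 ratios were 2.01, 2.13 and 2.11 for PARP9, PARP14 and DTX3L. PARP9 and DTX3L are neighbours on chromosome 3 and form 1 protein complex.

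The oligoadenylate synthetases, which make the messenger that activates RNase L against viral RNA, were all highest in Control-3, with a median Control-3 ratio of 3.07. OAS3 had the lowest p, with 42.6, 36.1 and 70.4 CPM in the controls and 38.6, 25.8 and 43.3 CPM in the CLs-treated samples. In OAS3, CLs-2 was the lowest library and CLs-1 and CLs-3 lay among Control-1 and Control-2 or just above them. The log2 fold change was -0.47 (SE 0.25, edgeR, adjusted p = 0.914), and -0.13 (SE 0.22, edgeR, adjusted p = 0.998) without Control-3. The other members of this family are given because they held the largest ratios, a choice made after their values were seen. OASL, a family member without synthetase activity that enhances DDX58 signalling, had 50.9, 34.0 and 175.1 CPM in the controls and 46.6, 32.6 and 66.8 CPM in the treated samples. Its log2 fold change was -0.83 (SE 0.49, edgeR, adjusted p = 0.938), and 0.20 (SE 0.27, edgeR, adjusted p = 0.998) without Control-3. The sign of the OASL difference thus turned when Control-3 alone was left out. With both samples numbered 3 left out, the log2 fold change of OASL was -0.093 (SE 0.24, edgeR). OAS2 had 0.782, 1.04 and 8.92 CPM in the controls, from 9, 12 and 104 counts, and 2.22, 1.12 and 3.24 CPM in the treated samples. OAS1 had a Control-3 ratio of 2.01. OAS1, OAS2 and OAS3 are neighbours on chromosome 12.

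Of the 4 IFIT genes, whose proteins bind foreign RNA and block its translation, 3 were highest in Control-3. IFIT1 had 29.6, 24.9 and 49.99 CPM in the controls and 33.7, 22.6 and 26.5 CPM in the CLs-treated samples. Control-1 and Control-2 lay within the range of the treated group, and the log2 fold change of IFIT1 was -0.33 (SE 0.25, edgeR, adjusted p = 0.977), and 0.02 (SE 0.20, edgeR, adjusted p = 0.999) without Control-3. Control-3 ratios were 1.84 for IFIT1, 2.99 for IFIT2 and 2.45 for IFIT3. IFIT5 differed from them, with 20.3, 18.7 and 20.1 CPM in the controls and a ratio of 1.03, although its promoter holds the ISRE core at 35 bases before the start. The 4 genes lie on chromosome 10, and the ratios therefore differed between neighbours.

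GBP1, a guanylate-binding protein that acts against bacteria and viruses inside the cell, was the member with the most even difference between the groups. It had 5.64, 5.87 and 10.3 CPM in the controls, from 65, 68 and 120 counts, and 3.12, 2.68 and 3.15 CPM in the CLs-treated samples, from 45, 31 and 36 counts. Every treated library lay below every control library, with means of 7.27 ± 2.62 CPM (SD, n = 3) in the control group and 2.98 ± 0.264 CPM among the treated samples. By edgeR the log2 fold change was -1.28 (SE 0.29), at an adjusted p of 0.201 that did not pass the threshold. For groups of 3 samples that do not overlap, an exact two-sided permutation test can only give p = 0.10, its smallest value. It thus adds nothing to the separation of GBP1, which 6.18% of all genes showed in the same direction. DESeq2 called the gene down (adjusted p = 0.0244), as it did 0.605% of all genes, and so did edgeR without the filter on low counts (adjusted p = 0.0118), as it did 0.444% of 25432 genes. Without Control-3 the log2 fold change of GBP1 was -0.94 (SE 0.26, edgeR, adjusted p = 0.398), so the direction did not rest on that library while the size was smaller. GBP2, its neighbour on chromosome 1, had 3.39, 6.48 and 14.7 CPM in the controls and 3.74, 6.05 and 11.5 CPM in the treated samples, and its groups overlapped.

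The other 11 tested effectors were all without a call, with log2 fold changes from -0.24 in SAMD9 to 0.30 in IFI35. IFI35, a partner of NMI in the cytoplasm, had 27.1, 34.0 and 35.5 CPM in the controls and 30.5, 48.9 and 39.6 CPM in the CLs-treated samples, with an adjusted p of 0.951 from edgeR. ISG20, RSAD2 and IFI27 are named next because their Control-3 ratios were over 3, a choice made after their values were seen. ISG20, an exonuclease of single-stranded RNA, had 4.26, 5.61 and 18.3 CPM in the controls and 7.27, 9.08 and 15.2 CPM in the treated samples. All treated libraries of ISG20 were above Control-1 and Control-2 and below Control-3, and its log2 fold change was 0.16 (SE 0.47, edgeR, adjusted p = 0.998), and 1.08 (SE 0.33, edgeR, adjusted p = 0.481) without Control-3. RSAD2, the antiviral enzyme viperin, had 9, 3 and 35 counts in the controls and 25, 8 and 23 counts in the treated samples, with a Control-3 ratio of 5.77. IFI27, a mitochondrial protein, had 11.2, 9.50 and 33.0 CPM in the controls and 12.1, 14.5 and 23.1 CPM in the treated samples. In IFI27 the treated libraries again stood between the lower controls and Control-3. IFI6, IFI44L and SAMD9 had Control-3 ratios of 2.46, 2.25 and 1.73. MX1, a dynamin-like GTPase that blocks influenza virus, and IFI44 were more level, at 1.23 and 1.32. BST2, also called tetherin, which holds budding virus at the cell surface, had 353.4, 333.9 and 344.1 CPM in the controls and 237.4, 429.6 and 409.8 CPM in the treated samples. BST2 was thus even across the controls, Control-3 included, and its spread lay in the CLs-treated group, where CLs-1 was lowest. Its log2 fold change was 0.062 (SE 0.20, edgeR, adjusted p = 0.998), and 0.29 (SE 0.11, edgeR, adjusted p = 0.506) without CLs-1.

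The IFITM genes, whose membrane proteins hinder the fusion of viruses with the cell, also showed CLs-1 apart. IFITM2 had 140.4, 147.8 and 183.1 CPM in the controls and 84.7, 147.0 and 159.2 CPM in the CLs-treated samples, with a log2 fold change of -0.27 (SE 0.22, edgeR, adjusted p = 0.992). CLs-1 was the lowest of the 6 libraries in IFITM1, IFITM2 and IFITM3, at 66.6, 84.7 and 214.5 CPM, and Control-3 was the highest in each. Without CLs-1 the log2 fold changes were 0.015, -0.038 and 0.076, and without Control-3 they were 0.24, -0.15 and 0.017. Their Control-3 ratios were 2.09, 1.27 and 1.43. The 3 genes are neighbours on chromosome 11 and similar in sequence, with 37.7% of the stretches of 100 bases of IFITM1 and 5.92% of those of IFITM3 found in another IFITM gene, so part of their reads may be assigned to a wrong member.

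In antigen presentation, Control-3 was the highest control for all 7 tested members, by ratios from 1.12 in B2M to 3.33 in PSMB8. TAP1, a subunit of the peptide transporter of the endoplasmic reticulum, had 43.3, 45.5 and 74.2 CPM in the controls and 34.3, 36.8 and 48.1 CPM in the CLs-treated samples. CLs-1 and CLs-2 were below every control and CLs-3 lay above Control-1 and Control-2. The log2 fold change of TAP1 was -0.45 (SE 0.22, edgeR, adjusted p = 0.869), and -0.16 (SE 0.18, edgeR, adjusted p = 0.993) without Control-3. PSMB8, an immunoproteasome subunit, had 2.26, 2.59 and 8.06 CPM in the controls and 2.70, 3.11 and 3.59 CPM in the treated samples. TAP2, the partner of TAP1, was more level, with a ratio of 1.27, and 35.2% of its stretches of 100 bases are shared with an overlapping annotated gene. TAP1, TAP2, PSMB8 and PSMB9 lie side by side on chromosome 6. For the HLA class I heavy chains HLA-B, HLA-C and HLA-E the ratios were 1.72, 1.66 and 1.29. HLA-B, singled out after its values were seen, had 118.6, 107.8 and 195.2 CPM in the controls and 118.0, 137.5 and 165.2 CPM in the treated samples, and its log2 fold change was -0.0034 (SE 0.22, edgeR, adjusted p = 0.999), and 0.31 (SE 0.17) without Control-3. B2M, the light chain that all class I molecules share, had 262.5, 224.7 and 272.1 CPM in the controls and 264.4, 302.3 and 304.2 CPM in the treated samples, with a log2 fold change of 0.20 (SE 0.14, edgeR, adjusted p = 0.966). Reads of HLA genes may be shared between the loci, and how the counting treated them is not given in the sources used here.

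The samples of the groups share replicate numbers, and the difference within a number was not the same in the 3 pairs. The median log2 ratio of the CLs-treated over the control sample was 0.15 in pair 1, 0.02 in pair 2 and -0.51 in pair 3. In pair 1 the treated sample was higher in 30 of 46 members (65.2%), against 51.1% of all genes, and in pair 2 in 24 (52.2%), against 51.6%. In pair 3 it was lower in 41 of 46 members (89.1%), against 49.9% of all genes. IRF1, IRF9, OAS1, OAS3, OASL, GBP1, IFITM2, TAP1 and HLA-E were lower in the treated sample in all 3 pairs. Some of these ratios were near 0, as for IFITM2 at -0.0079 in pair 2 and IRF1 at -0.032 in pair 1. In pair 3 each of these genes was set against Control-3, its highest library. The ratios of GBP1 were -0.86, -1.13 and -1.71, those of TAP1 were -0.34, -0.31 and -0.62, and those of IRF9 were -0.26, -0.29 and -0.89. IFI35, at 0.17, 0.52 and 0.16, and B2M, at 0.01, 0.43 and 0.16, were higher in the treated sample in every pair. How many of all genes kept 1 sign in the 3 pairs was not counted, so these lists show no particular trait of the members.

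**Figure D3:**
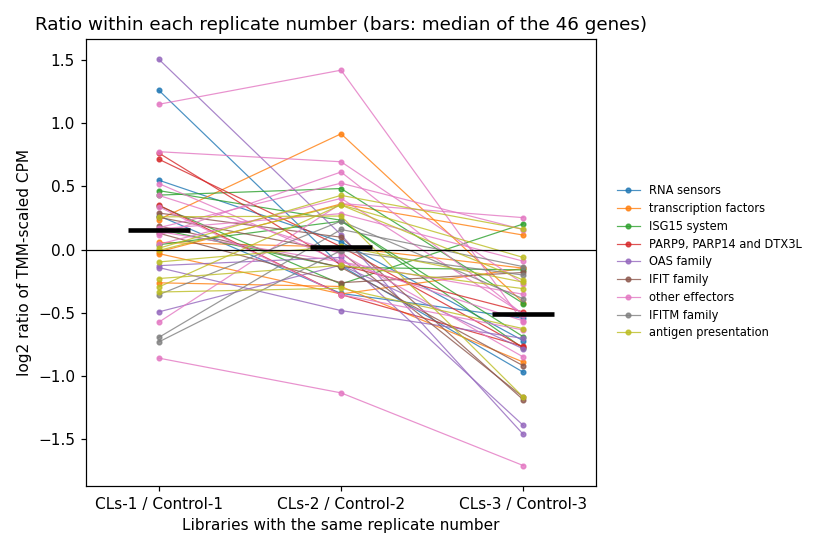
Each line gives 1 of the 46 tested genes, with the log2 ratio of TMM-scaled CPM in CLs-1 over Control-1, CLs-2 over Control-2 and CLs-3 over Control-3, coloured by role. The black bars mark the medians of 0.15, 0.02 and -0.51, and the third pair lies mostly below 0.

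Without Control-3 the direction of most members turned. Control-3 was the highest control in 44 of the 46 members, so leaving it out was bound to raise most log2 fold changes. The log2 fold change was then above 0 in 37 of 46 members, against 11 of 46 with all libraries, and the median was 0.23 against 0.02 over all genes. Of the 46 members, 26 changed sign. With edgeR 0 members were called without Control-3, and 6 had an unadjusted p under 0.05, namely ISG15, OAS2, IFI27, ISG20, RSAD2 and GBP1, against 6.00% of all genes. GBP1 was the only one of these 6 with a value below 0. Leaving out both samples numbered 3, an alternative added after the data were seen, gave 30 of 45 members above 0 and a median of 0.12. Leaving out any other single library kept the median between -0.34 and -0.07. The direction of the list as a whole therefore depended on Control-3, and no direction is given for it here.

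**Figure D4:**
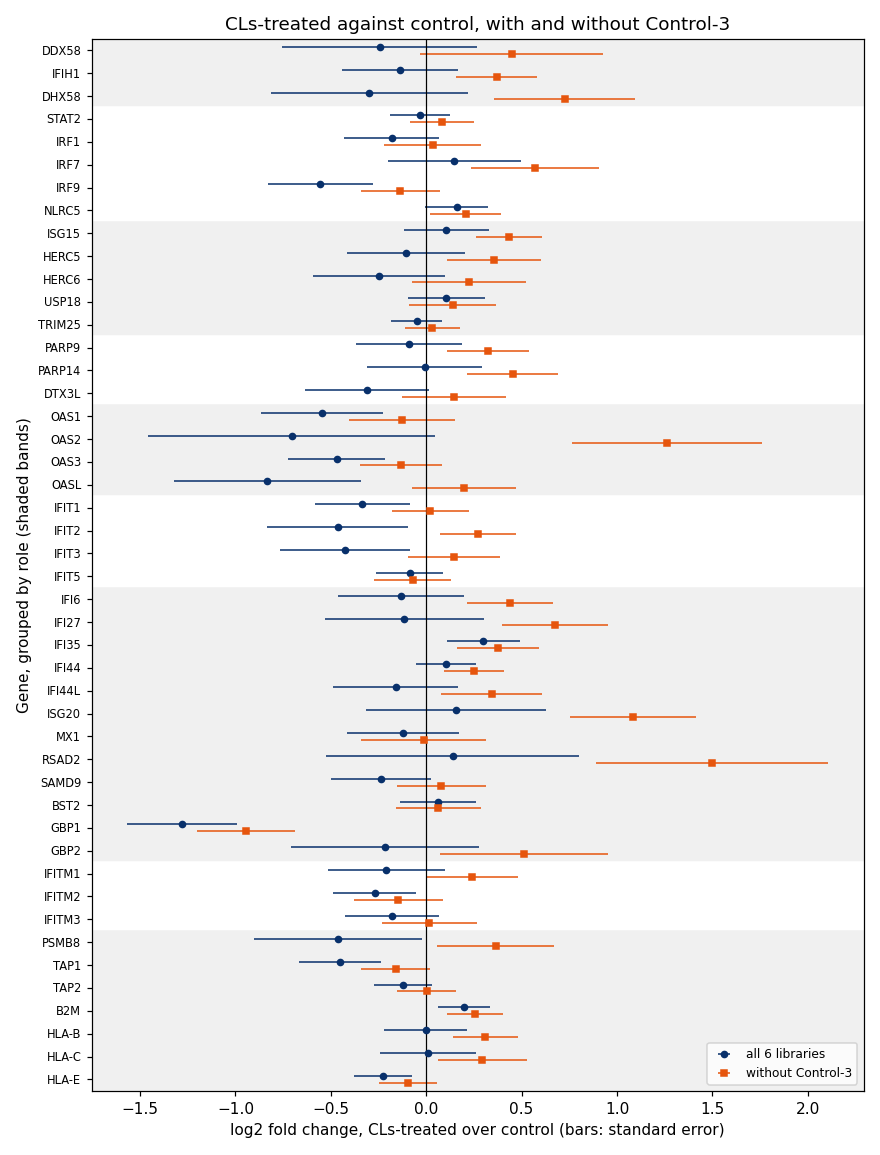
Points give the log2 fold change of the CLs-treated over the control group for the 46 tested genes with all 6 libraries (blue circles) and without Control-3 (orange squares), and bars give the standard error. The orange squares lie to the right of the blue circles for nearly all genes, and 37 of 46 are above 0, whereas GBP1 stays below 0 in both.

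No gene upstream of the members passed the test. Of 33 genes of interferon production and signalling (interferons, receptors, kinases, adaptors and inhibitors), 22 were tested and 0 were called with edgeR or DESeq2. With edgeR 1 had an unadjusted p under 0.05, against 5.81% of all genes, and their median log2 fold change was 0.01. The interferon genes IFNB1, IFNA1, IFNL1, IFNL2, IFNL3 and IFNG had 0 counts in all 6 libraries, which allows at most 0.208 to 0.263 CPM per library. Control-3 was over 1.5 times the other controls in 1 of the 22 genes (4.55%), against 9.11% of all genes. It was IL10RB, a receptor chain for interferon lambda. By rank the excess was wider, as Control-3 was the highest library in 10 of the 22 genes (45.5%), against 21.4% of all genes. It was the highest control in 15 (68.2%), against 39.7%. In pair 3 the treated sample was lower in 17 (77.3%), against 49.9%. TMEM173 (STING), the adaptor of DNA sensing, had the lowest p, with 32.3, 33.4 and 42.1 CPM in the controls and 22.7, 27.7 and 28.3 CPM in the CLs-treated samples. The log2 fold change of TMEM173 was -0.46 (SE 0.16, edgeR, adjusted p = 0.653), and -0.33 (SE 0.17) without Control-3. All treated samples lay below all controls in 3 of the 22 genes (TMEM173, TICAM1 and IFNAR2), against 6.18% of all genes, and above them in 0. The adaptor TICAM1 and the kinase JAK1 followed, with log2 fold changes of -0.30 and -0.23 (edgeR, adjusted p = 0.900 and 0.958), and -0.28 and -0.12 without Control-3.

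Control-3 was also high in part of the further interferon-stimulated genes outside the list, and none of them passed the test. Of 51 such genes 36 were tested, and 0 were called with edgeR or DESeq2. With edgeR 3 had an unadjusted p under 0.05, against 5.81% of all genes. The median log2 fold change was -0.10, with 11 of 36 genes above 0. Without Control-3 the median turned to 0.17, with 26 of 36 above 0, and without both samples numbered 3 it was 0.16. Control-3 was over 1.5 times the mean of the other controls in 17 of the 36 (47.2%), against 9.11% of all genes. It was the highest library in 24 (66.7%), against 21.4%. The chemokine gene CCL5, named after its values were seen, had 8.16, 4.58 and 48.6 CPM in the controls and 9.62, 6.83 and 14.6 CPM in the treated samples. Lowest in p were APOL6, IFI30 and LAMP3. APOL6, an apolipoprotein L gene, had 3.39, 3.11 and 6.52 CPM in the controls and 2.22, 1.64 and 2.45 CPM in the treated samples, with a log2 fold change of -1.04 (SE 0.34, edgeR, adjusted p = 0.536) and no overlap of the groups. Without Control-3 it was -0.62 (SE 0.32). IFI30, a thiol reductase of the lysosome that unfolds antigens, had 217.2, 224.3 and 232.6 CPM in the controls and 255.9, 309.3 and 304.2 CPM in the treated samples. In IFI30 every treated library was above every control, with a log2 fold change of 0.37 (SE 0.13, edgeR, adjusted p = 0.651). LAMP3, a lysosomal membrane protein, had a log2 fold change of -0.83 (SE 0.32, edgeR, adjusted p = 0.723).

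The remaining genes of antigen presentation were also without a call. Of 26 genes, 17 were tested and 0 were called with edgeR or DESeq2. With edgeR 0 had an unadjusted p under 0.05, against 5.81% of all genes, and with DESeq2 1, against 5.10%. The median log2 fold change was -0.01. Control-3 was over 1.5 times the other controls in 5 of the 17 (29.4%), against 9.11% of all genes. All treated samples lay below all controls in 1 of the 17, MICB, against 6.18% of all genes, and above them in 0, against 5.34%. TAPBP, which bridges the peptide transporter and class I molecules, had the lowest p, with 37.8, 41.8 and 73.6 CPM in the controls and 36.3, 29.3 and 42.6 CPM in the CLs-treated samples. Its log2 fold change was -0.50 (SE 0.24, edgeR, adjusted p = 0.872), and -0.14 (SE 0.18) without Control-3. The stress ligands MICB and MICA were next, at log2 fold changes of -0.15 and -0.17 (edgeR, adjusted p = 0.998 for both), and -0.16 and -0.31 without Control-3 (edgeR, adjusted p = 0.983 and 0.885). Of the HLA class II genes, HLA-DRA had 0 counts and CD74, the invariant chain, 0 or 1 count outside CLs-1, and they had 4 and 21 counts in CLs-1. HLA-DMA, which helps to load class II molecules, was detected in every library, at 3.04, 3.28 and 8.49 CPM in the controls and 2.22, 4.32 and 6.66 CPM in the treated samples.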

How the data were processed

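Gene expression was measured by single-end RNA-seq on the Ion Proton in 3 control and 3 CLs-treated samples. The authors used MapSplice for mapping and deposited raw counts of reads for each gene symbol, with no normalization. The submitters' processing notes name HTSeq 0.6.1 and the build hg19 (GRCh37). The annotation, the strand setting and the handling of reads with several places are not given in the sources used here. All sample columns were matched to labels by name.

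The counts were compared with edgeR 4.0.16 (R 4.3.3), by the quasi-likelihood test on condition alone after filterByExpr and TMM scaling, with Benjamini-Hochberg adjustment over all 15047 genes tested. The study's own model, EBSeq on RPKM, was not used, but its fold change criteria (1.5 and 0.67) at an adjusted p under 0.05 were kept. Standard errors were derived from the F statistic. DESeq2 1.42.0, other scaling factors and filters, no fold change criterion, the replicate block and leaving out samples were alternatives. The edgeR fit was also run on simulated counts. They held no shared excess in a single library such as that of Control-3, so no result here rests on that run.

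The members and the further lists were chosen with earlier results of these data known. Named in full were, per role, the member with the lowest p and any member called in some alternative, and of each further list the genes called or else the 3 with the lowest p. Genes named after their values were seen are marked.

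The replicate numbers are shared by the groups in the labels. On log2(CPM + 0.5), deviations from the group means correlated at 0.106, 0.112 and 0.320 for pairs 1, 2 and 3, so the numbers were taken as pairs, though 2 of the values lie barely above 0.1. Unmatched numbers gave nearly as much for Control-2 with CLs-1 (0.081) and Control-1 with CLs-2 (0.065). Number 3 against another number gave -0.22 to -0.13. The check thus sets apart the libraries numbered 3 and does not settle whether numbers 1 and 2 are pairs. Floors of 3 counts cover counting error only. Promoters came from RefSeq (GRCh38.p14), and shared stretches of 100 bases were counted over GENCODE transcripts. The files give no coordinates, and those of the promoters are in GRCh38.p14, not the build of the counts.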

Additional observations from a re-analysis of the deposited data

How the results depend on the processing

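The count of members called down went from 0 to 1 (GBP1) with DESeq2 and 1 without the filter on low counts, and the adjusted p of GBP1 ranged from 0.0118 to 0.623 over the alternatives. Members called up stayed at 0 in every alternative run. With TMM, RLE or no scaling factor, and under a filter of 1 CPM, the median log2 fold change of the members kept its sign. The median of the genes of interferon production and signalling, 0.0083, became -0.065 without the filter and ranged from -0.065 to 0.11 when samples were left out. A block for the replicate number changed no call among the members under this pairing. The members' median was then -0.11, the log2 fold changes of 13 members were above 0, and GBP1 had -1.24 (edgeR, adjusted p = 0.0668). With the block 6 members had an unadjusted p under 0.05 (edgeR), against 1 without it. They were IRF9, OAS1, OAS3, OASL, GBP1 and TAP1, all with log2 fold changes below 0. Without Control-3, and with no block, their log2 fold changes were -0.14, -0.13, -0.13, 0.20, -0.94 and -0.16. Over all genes the calls rose from 13 to 68 with the block. The share of all genes with an unadjusted p under 0.05 was not counted, so the 6 show no particular trait of the members. The sign turned to 0.043 for PARP14, 0.043 for IFI27, 0.033 for HLA-B and -0.0019 for HLA-C with the block, to 0.015 for PARP14 and 0.016 for HLA-B by library size only, and to 0.0017 for HLA-B without the filter. The cause of these changes was not tested.

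When samples were left out (each in turn, or both numbered 3), the log2 fold change turned in at least 1 case for 35 members and ranged from -0.61 to 0.45 for DDX58, -0.34 to 0.37 for IFIH1, -0.70 to 0.73 for DHX58, -0.12 to 0.081 for STAT2, -0.41 to 0.033 for IRF1, -0.10 to 0.57 for IRF7, -0.10 to 0.46 for ISG15, -0.36 to 0.38 for HERC5, -0.55 to 0.23 for HERC6, -0.11 to 0.032 for TRIM25, -0.32 to 0.37 for PARP9, -0.21 to 0.45 for PARP14, -0.50 to 0.15 for DTX3L, -1.18 to 1.26 for OAS2, -1.21 to 0.20 for OASL, -0.53 to 0.055 for IFIT1, -0.76 to 0.27 for IFIT2, -0.71 to 0.16 for IFIT3, -0.24 to 0.023 for IFIT5, -0.36 to 0.44 for IFI6, -0.43 to 0.68 for IFI27, -0.025 to 0.25 for IFI44, -0.43 to 0.34 for IFI44L, -0.20 to 1.08 for ISG20, -0.27 to 0.19 for MX1, -0.35 to 1.499 for RSAD2, -0.39 to 0.0795 for SAMD9, -0.087 to 0.29 for BST2, -0.75 to 0.51 for GBP2, -0.49 to 0.24 for IFITM1, -0.40 to 0.076 for IFITM3, -0.77 to 0.36 for PSMB8, -0.24 to 0.0023 for TAP2, -0.16 to 0.31 for HLA-B and -0.22 to 0.29 for HLA-C. Leaving out Control-3 turned 26 of 46 members, and leaving out any other single library turned 3 to 8. At this depth CMPK2, XAF1 and PSMB9 could not be tested, and OAS2 and RSAD2 had 12 counts or fewer in at least 2 libraries. A miss of the threshold does not show that a gene did not differ.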

Other observations

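Among the further interferon-stimulated genes, several outside the members had large Control-3 ratios, and they are named here after their values were seen. DDX60, a helicase that assists the RNA sensors, had 3.65, 6.22 and 26.8 CPM in the controls and 8.03, 5.53 and 6.13 CPM in the CLs-treated samples. TNFSF10, the death ligand TRAIL, had 0.695, 1.21 and 6.95 CPM in the controls and 0.969, 1.30 and 3.42 CPM in the treated samples. UBE2L6, the enzyme that passes ISG15 to its ligases, had 5.04, 5.96 and 22.8 CPM in the controls and 6.37, 7.95 and 13.4 CPM in the treated samples. In each of these genes Control-3 was the highest library and the groups overlapped. GBP4, a gene of the GBP family, had 2, 2 and 39 counts in the controls and 2, 2 and 5 counts in the treated samples, too few for a test. Not every gene of the interferon response was higher in Control-3. WARS, a tRNA synthetase that interferon gamma raises, had 299.3, 286.9 and 193.7 CPM in the controls and 350.5, 323.9 and 210.8 CPM in the treated samples, so both libraries numbered 3 were the lowest of their groups. Control-3 is part of the control group, so no direction between the groups is read from these values.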
